A study of Mus musculus with 8 samples.

Results

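The neutrophil genes described here are 10 genes matched by symbol in the deposited mouse liver expression table: the alarmins S100a8 and S100a9, the secreted factor Retnlg, the receptors Csf3r and Cxcr2, and the granule genes Ngp, Camp, Ltf, Elane and Mpo. They are 10 of 33467 genes in that table, which covers, but for 1 gene, those of the 55401 genes in the count matrix that had reads. Each symbol matched 1 gene, and all 10 passed the filter on low counts that left 19535 genes for testing. Liver RNA came from 8 wild-type C57BL/6J mice, 4 on a standard diet (control) and 4 on chow holding 1% 3,5-diethoxycarbonyl-1,4-dihydrocollidine (DDC), each for 4 weeks. DDC is a porphyrin-raising compound used to bring on cholestatic injury and biliary fibrosis in mice. The labels put all 8 samples in 1 batch and call them biological replicates, and give neither age nor sex.

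Neutrophils mature in the bone marrow, and their granule proteins are made in order. The azurophil enzymes myeloperoxidase (Mpo) and neutrophil elastase (Elane) are transcribed at the promyelocyte stage and the specific granule proteins lactoferrin (Ltf), cathelicidin (Camp) and neutrophilic granule protein (Ngp) at the later myelocyte and metamyelocyte stages. Mature cells carry the receptor for granulocyte colony-stimulating factor (Csf3r) and the chemokine receptor Cxcr2, which reads CXC chemokines, and hold large amounts of the calcium-binding proteins S100A8 and S100A9, which pair as calprotectin. In liver injury neutrophils enter from the blood, where few of the granule genes are still transcribed. The values are from bulk tissue, so the number of cells of a type and the amount of RNA per cell cannot be told apart.

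Libraries held 61179103 to 64768950 counts in controls and 63312756 to 81664058 in DDC. Hepatocyte markers were abundant throughout, with the albumin gene Alb among them, and their summed level was 142155 to 165856 CPM in controls and 57124 to 72437 CPM in DDC, where CPM is a gene's count per 1000000 counts of the library total scaled by the TMM method. The TMM factors, which correct for a few abundant genes taking up the reads, were 0.792 to 0.815 for controls and 1.21 to 1.27 for DDC. Without them, scaling by library totals alone, the median change over all genes was 0.70 on the log2 scale in place of 0.073, and 86.8% of called genes were higher in DDC in place of 53.1%. The library DDC 1 stood apart from the other 3 DDC libraries in the neutrophil genes, so the 10 genes are given per library and also without it. Transcripts of testis germ cells and of cardiac muscle were present in all 8 liver libraries at levels that set DDC 1 and the controls apart from DDC 2 to 4, with the values given below.

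Of the 10 genes, 5 were higher in DDC (S100a8, S100a9, Retnlg, Csf3r and Cxcr2) and 0 were lower (edgeR's quasi-likelihood test with Benjamini-Hochberg adjustment over all tested genes, adjusted p under 0.05). Among all 19535 tested genes, 30.2% were called higher and 26.6% lower. The DDC and control values did not overlap for the same 5 genes, against 26.9% of all tested genes with DDC above and 25.7% with DDC below. At an unadjusted p under 0.05 the edgeR count of lower genes was 1, which was Mpo, and DESeq2 and limma voom each called 1 lower at an adjusted p under 0.05. The median log2 fold change of the 10 genes was 0.72, against 0.073 for all tested genes. Without DDC 1, 5 genes were higher and 1, Mpo, was lower, where 30.7% and 27.3% of all genes were called.

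**Figure D1:**
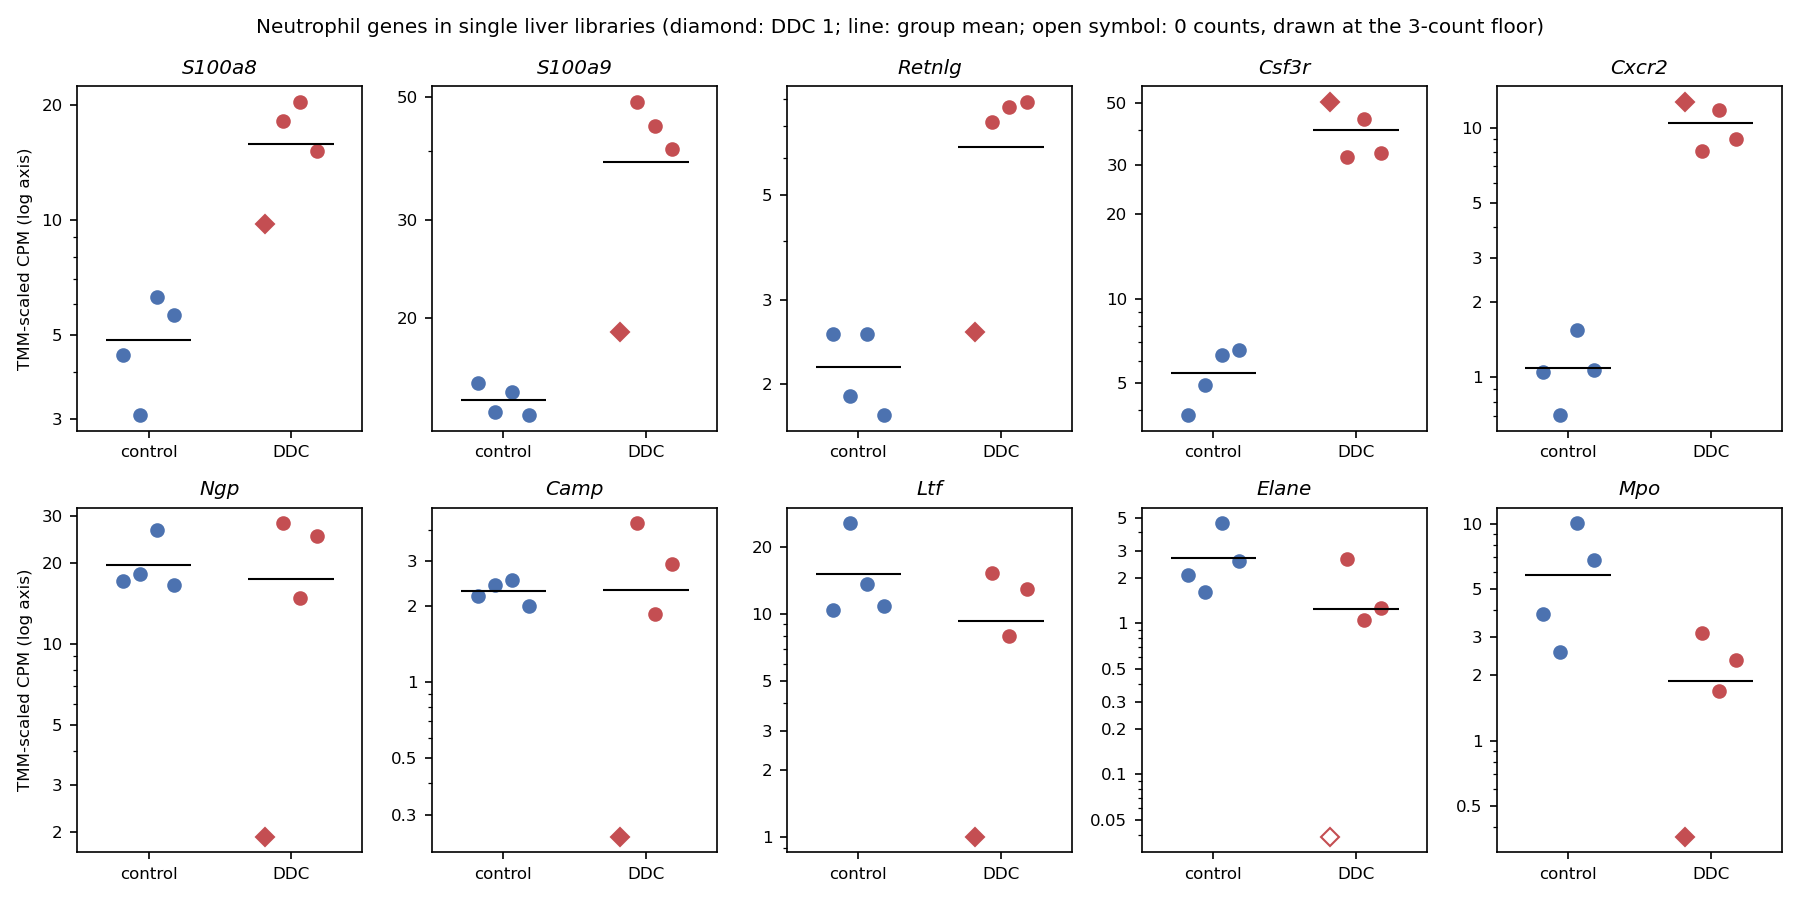
Level of each of the 10 genes in each library, in TMM-scaled CPM on a log axis that differs by panel. Blue points are control libraries, red points DDC libraries, the diamond is DDC 1 and the line is the group mean; the open diamond is the library with 0 Elane counts, drawn at the 3-count floor. DDC 1 is the highest DDC library for Csf3r and Cxcr2 and the lowest of all 8 for the 5 granule genes.

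The receptors had the largest log2 fold changes of the 10 in the edgeR fit of all libraries. Csf3r stood at 3.84, 4.94, 6.32 and 6.59 CPM in controls 1 to 4 and at 50.5, 32.1, 43.8 and 33.2 CPM in DDC 1 to 4. Every DDC library lay far above every control, and DDC 1 was the highest. The rise was 7.36-fold, from 5.42 ± 1.28 to 39.9 ± 8.83 CPM (mean ± SD, n = 4 each; log2 fold change 2.88, standard error (SE) 0.21, edgeR adjusted p = 3.97e-06). Cxcr2 was 1.05, 0.706, 1.54 and 1.07 CPM in controls and 12.7, 8.10, 11.8 and 8.99 CPM in DDC 1 to 4. Its groups were also fully apart, with DDC 1 again at the top. It rose 9.50-fold, from 1.09 ± 0.343 to 10.4 ± 2.20 CPM (n = 4 each; log2 fold change 3.25, SE 0.26, edgeR adjusted p = 5.01e-06). Without DDC 1 the rises were 6.61-fold for Csf3r and 8.68-fold for Cxcr2. Csf3r (ENSMUSG00000028859) lies on chromosome 4 at 126024550 to 126044440 and Cxcr2 (ENSMUSG00000026180) on chromosome 1 at 74153989 to 74161246 (GRCm38), and all 10 genes are protein coding.

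The alarmins and Retnlg rose less, and DDC 1 held the lowest DDC value of each. The sequences just before these 3 genes and the 2 receptor genes are shown, since all 5 were higher in DDC. They come from RefSeq (GRCm38.p6), 5′ to 3′, and end at the last base before the annotated gene or, for Retnlg, before the RefSeq start. Capitals mark matches, on either strand, to the C/EBP pattern TTNNGNAA or to the ETS core GGAAGT, whose longer PU.1 form is GAGGAAGT. They cover chr3:90668821-90668977 (plus strand), chr3:90695722-90695971 (minus strand), chr16:48872358-48872607 (plus strand), chr4:126024409-126024549 (plus strand) and chr1:74153744-74153988 (plus strand), and the Csf3r stretch holds no match.
S100a8: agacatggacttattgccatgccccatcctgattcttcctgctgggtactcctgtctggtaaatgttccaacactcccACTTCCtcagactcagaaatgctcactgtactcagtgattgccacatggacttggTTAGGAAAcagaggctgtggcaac
S100a9: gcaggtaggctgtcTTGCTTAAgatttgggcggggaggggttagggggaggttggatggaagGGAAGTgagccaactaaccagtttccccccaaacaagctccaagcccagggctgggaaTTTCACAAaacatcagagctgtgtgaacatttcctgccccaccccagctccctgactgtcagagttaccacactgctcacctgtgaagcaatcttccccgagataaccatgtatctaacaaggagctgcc
Retnlg: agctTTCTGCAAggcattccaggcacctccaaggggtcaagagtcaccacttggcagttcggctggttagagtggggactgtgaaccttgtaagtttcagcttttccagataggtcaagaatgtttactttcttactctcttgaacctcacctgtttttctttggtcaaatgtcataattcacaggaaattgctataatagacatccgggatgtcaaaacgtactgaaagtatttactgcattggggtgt
Csf3r: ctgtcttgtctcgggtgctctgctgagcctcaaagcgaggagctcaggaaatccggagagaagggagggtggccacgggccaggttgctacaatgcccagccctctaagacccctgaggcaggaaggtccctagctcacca
Cxcr2: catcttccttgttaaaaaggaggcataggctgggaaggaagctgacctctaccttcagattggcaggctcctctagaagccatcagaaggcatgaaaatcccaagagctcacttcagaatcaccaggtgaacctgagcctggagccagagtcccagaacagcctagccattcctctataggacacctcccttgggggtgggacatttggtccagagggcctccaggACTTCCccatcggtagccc

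S100a8 was 4.42, 3.08, 6.28 and 5.62 CPM in controls and 9.72, 18.1, 20.4 and 15.1 CPM in DDC 1 to 4. All DDC libraries were above all controls, with DDC 1 nearest to them. It rose 3.26-fold, from 4.85 ± 1.41 to 15.8 ± 4.61 CPM (n = 4 each; log2 fold change 1.71, SE 0.27, edgeR adjusted p = 0.000572). S100a9 was 15.3, 13.5, 14.7 and 13.4 CPM in controls and 18.9, 49.1, 44.5 and 40.4 CPM in DDC 1 to 4. Controls were tightly grouped, and DDC 1 sat close above them while the other 3 were well clear. Its rise was 2.68-fold, from 14.2 ± 0.924 to 38.2 ± 13.4 CPM (n = 4 each; log2 fold change 1.42, SE 0.26, edgeR adjusted p = 0.00166). Without DDC 1 the rise was 3.63-fold for S100a8 and 3.09-fold for S100a9. S100a8 (ENSMUSG00000056054) and S100a9 (ENSMUSG00000056071) lie on chromosome 3, within 0.0267 Mb of each other, at 90668978 to 90670035 and 90692632 to 90695721.

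Retnlg, a resistin-like secreted factor of neutrophils, was 2.54, 1.88, 2.55 and 1.71 CPM in controls and 2.57, 7.13, 7.69 and 7.88 CPM in DDC 1 to 4. DDC 1 lay at the top of the control range, and the lack of overlap rests on that small margin. The rise was 2.91-fold, from 2.17 ± 0.437 to 6.32 ± 2.52 CPM (n = 4 each; log2 fold change 1.54, SE 0.34, edgeR adjusted p = 0.00367), and 3.43-fold without DDC 1. Retnlg (ENSMUSG00000022651) lies on chromosome 16 at 48872621 to 48874496. S100a8 relative to S100a9, on the authors' length-scaled FPKM values, was 0.217, 0.170, 0.320 and 0.314 in controls and 0.387, 0.277, 0.344 and 0.281 in DDC 1 to 4. The ranges overlapped, and the mean log2 ratio was 0.37 higher in DDC (exact two-sided permutation test over 70 assignments, p = 0.229, n = 4 each; the smallest p that 4 against 4 allows is 0.0286).

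**Figure D2:**
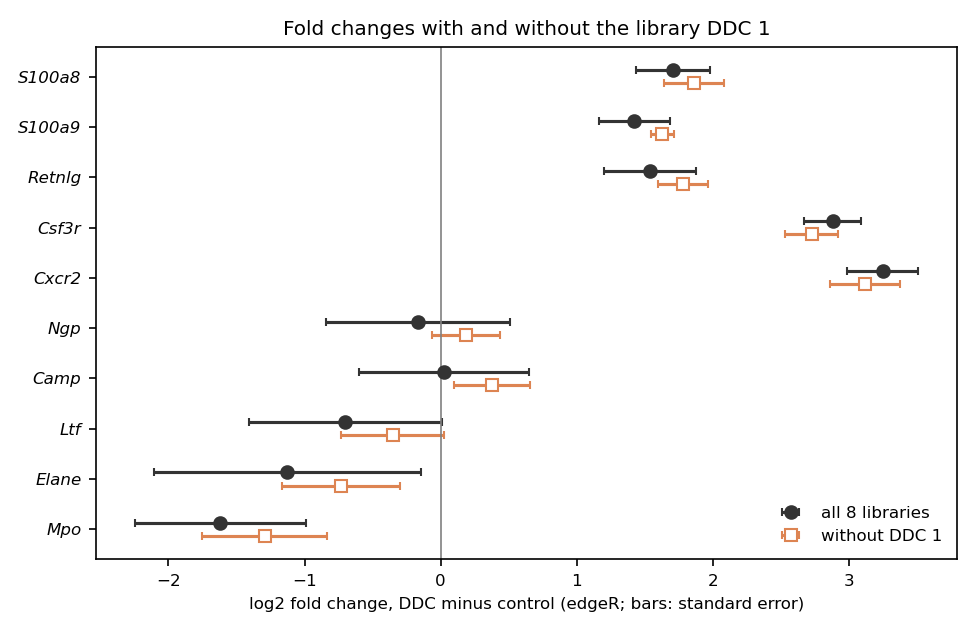
Log2 fold change of each of the 10 genes, DDC minus control, from edgeR with all 8 libraries (filled) and without DDC 1 (open), with bars of 1 standard error. The alarmins, Retnlg and the receptors lie to the right of 0 in both fits, and the bars of the 5 granule genes narrow without DDC 1.

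None of the 5 granule genes passed the test with all libraries, and each was lowest in DDC 1, as were 14.5% of all tested genes. The stretches before all 5 are shown for that reason. They come from RefSeq (GRCm38.p6) with capitals as above, and cover chr9:110419558-110419746 (plus strand), chr9:109849618-109849706 (minus strand), chr9:111019042-111019270 (plus strand), chr10:79886062-79886246 (plus strand) and chr11:87793534-87793580 (plus strand), and the Camp stretch holds no match.
Ngp: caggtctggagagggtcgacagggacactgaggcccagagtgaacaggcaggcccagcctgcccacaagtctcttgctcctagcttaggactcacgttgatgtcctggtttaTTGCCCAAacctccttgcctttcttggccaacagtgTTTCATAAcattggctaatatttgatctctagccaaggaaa
Camp: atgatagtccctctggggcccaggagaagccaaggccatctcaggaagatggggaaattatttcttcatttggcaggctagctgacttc
Ltf: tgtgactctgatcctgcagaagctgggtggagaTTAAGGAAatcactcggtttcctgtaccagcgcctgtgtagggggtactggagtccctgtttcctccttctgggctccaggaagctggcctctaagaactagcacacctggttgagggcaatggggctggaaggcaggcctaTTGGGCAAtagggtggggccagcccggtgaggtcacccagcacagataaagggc
Elane: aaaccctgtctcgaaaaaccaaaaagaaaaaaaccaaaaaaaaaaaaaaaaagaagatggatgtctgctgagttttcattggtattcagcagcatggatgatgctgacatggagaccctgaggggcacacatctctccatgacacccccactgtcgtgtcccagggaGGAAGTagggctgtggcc
Mpo: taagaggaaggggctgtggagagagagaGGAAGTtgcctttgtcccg

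In the full window of 250 bases before the RefSeq start, on both strands, TTNNGNAA occurred for 5 of the 10 genes and in 36.8% of 32851 promoters of the same length. GGAAGT occurred for 5 of 10 and in 19.7% of promoters, and GAGGAAGT, which contains it, for 3 of 10 and in 2.44%. TATAAA, on the sense strand, occurred for 1 of 10 and in 7.59%. A match describes the letters and is not a binding site.

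Ngp, a cystatin-like protein of the specific granules, was 17.2, 18.2, 26.6 and 16.5 CPM in controls and 1.92, 28.1, 14.9 and 25.1 CPM in DDC 1 to 4. The lowest control was 8.58 times DDC 1, while the other 3 DDC libraries lay below, within and above the narrow control range. The group means were 19.6 ± 4.71 and 17.5 ± 11.8 CPM (n = 4 each; log2 fold change -0.16, SE 0.67, edgeR adjusted p = 0.848), and without DDC 1 the log2 fold change was 0.19 (edgeR adjusted p = 0.545). Camp, the cathelicidin antimicrobial peptide, was 2.19, 2.41, 2.53 and 2.00 CPM in controls and 0.245, 4.25, 1.86 and 2.92 CPM in DDC 1 to 4. The lowest control was 8.17 times DDC 1, and the other DDC libraries lay on both sides of the controls. Its group means were 2.28 ± 0.234 and 2.32 ± 1.69 CPM (n = 4 each; log2 fold change 0.023, SE 0.62, edgeR adjusted p = 0.978; without DDC 1, 0.38, adjusted p = 0.277).

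Ltf, the iron-binding lactoferrin, was 10.4, 25.5, 13.5 and 10.9 CPM in controls and 1.01, 15.3, 7.97 and 12.9 CPM in DDC 1 to 4. The lowest control was 10.4 times DDC 1, and control 2 was the highest of the 8. The means were 15.1 ± 7.06 and 9.28 ± 6.29 CPM (n = 4 each; log2 fold change -0.70, SE 0.71, edgeR adjusted p = 0.426; without DDC 1, -0.35, adjusted p = 0.459). Camp (ENSMUSG00000038357), Ngp (ENSMUSG00000032484) and Ltf (ENSMUSG00000032496) lie on chromosome 9 within 1.2 Mb, at 109847379 to 109849617, 110419747 to 110423012 and 111019271 to 111042767.

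Elane, neutrophil elastase, had 107, 82, 242 and 126 counts in controls and 0, 224, 109 and 117 counts in DDC 1 to 4, or 2.08, 1.61, 4.60 and 2.60 CPM against 0, 2.65, 1.05 and 1.27 CPM. A count of 0 in DDC 1 allows up to 3 counts, or 0.0387 CPM, for counting error only, so the lowest control was at least 41.5-fold higher and the lowest of DDC 2 to 4 at least 27.2-fold higher. The means were 2.72 ± 1.32 and 1.24 ± 1.09 CPM (n = 4 each; log2 fold change -1.13, SE 0.98, edgeR adjusted p = 0.352; without DDC 1, -0.73, adjusted p = 0.174). Mpo, myeloperoxidase, was 3.82, 2.57, 10.1 and 6.77 CPM in controls and 0.361, 3.15, 1.70 and 2.35 CPM in DDC 1 to 4. The lowest control was 7.11 times DDC 1, and DDC 2 lay inside the control range. The means were 5.81 ± 3.34 and 1.89 ± 1.18 CPM (n = 4 each; log2 fold change -1.62, SE 0.63, edgeR adjusted p = 0.0534). Without DDC 1 the log2 fold change was -1.29 (edgeR adjusted p = 0.0395), and Mpo was also called lower by DESeq2 and limma voom (adjusted p = 0.0444 and 0.0449), while with library totals alone it was at -0.99 (edgeR adjusted p = 0.180). Elane (ENSMUSG00000020125) lies on chromosome 10 at 79886247 to 79888215 and Mpo (ENSMUSG00000009350) on chromosome 11 at 87793581 to 87804413, where the antisense gene Gm11505 overlaps it with 7 counts in all libraries together. No strand setting is given in the sources used here, so these counts could not be parted.

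The summed level of the 5 granule genes was 35.7 to 57.4 CPM in controls, 3.54 CPM in DDC 1 and 27.4 to 53.4 CPM in DDC 2 to 4. The summed level of Csf3r and Cxcr2 was 4.89 to 7.86 CPM in controls, 63.2 CPM in DDC 1 and 40.2 to 55.6 CPM in DDC 2 to 4. DDC 1 therefore had the lowest granule sum and the highest receptor sum of the 8. On FPKM values Ngp relative to Csf3r was 13.2, 11.0, 12.5 and 7.42 in controls and 0.112, 2.58, 1.00 and 2.24 in DDC 1 to 4. All DDC libraries were below all controls in this ratio, with DDC 1 the lowest. Csf3r relative to Cxcr2 was 3.13 to 5.93 in controls and 3.12 to 3.36 in DDC, with DDC 1 at 3.36, as DDC 2. Among 12573 genes with at least 1 CPM in each of the other 7 libraries, 14 (0.111%) had a lowest other library at least 4 times the DDC 1 value. Those 14 included Ngp, Camp, Ltf, Elane and Mpo, and the other libraries had 2 to 6 such genes each and 0 of the 10. The other genes included 4 immunoglobulin genes, Ighg1 among them, and the DNA demethylase gene Tet3, all chosen after their values were seen. The 10 genes were also chosen with earlier results of these data known, so their place among the 14 is not independent support.

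**Figure D3:**
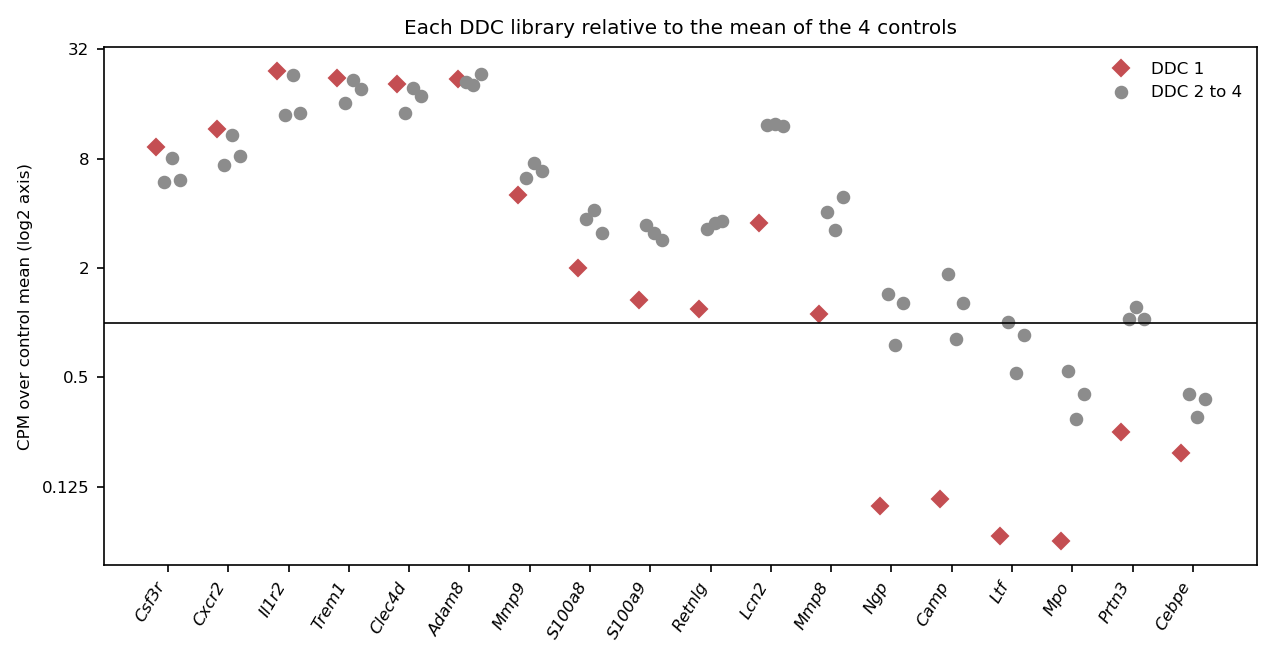
Each DDC library's CPM divided by the mean of the 4 controls, on a log2 axis, for neutrophil genes, with DDC 1 as a red diamond and DDC 2 to 4 as grey points; the line is a ratio of 1. Csf3r, Cxcr2, Il1r2, Trem1, Clec4d and Adam8 sit together above 1 in DDC 1, whereas Ngp, Camp, Ltf and Mpo lie far below it there.

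Per length, on the authors' FPKM values, the order of mean levels in controls was S100a9 (21.2), Ngp (12.5), S100a8 (5.41), Ltf (3.41), Retnlg (2.84), Camp (2.34), Elane (2.14), Mpo (1.31), Csf3r (1.16) and Cxcr2 (0.276). In DDC it was S100a9 (87.5), S100a8 (27.3), Ngp (17.1), Csf3r (13.2), Retnlg (12.7), Cxcr2 (4.07), Camp (3.64), Ltf (3.20), Elane (1.50) and Mpo (0.654). In controls each neighbour pair from S100a8 down to Csf3r overlapped in mean ± SD, while S100a9, Ngp and Cxcr2 stood apart from their neighbours. In DDC the gaps between S100a9 and S100a8 and between Retnlg and Cxcr2 exceeded the spread, and all other neighbours overlapped. FPKM values carry no correction of the kind TMM makes, so DDC levels stand higher relative to controls than on the CPM scale.

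Other neutrophil genes were read in lists by role, and their counts stand beside the 30.2% of all tested genes called higher and the 26.6% called lower. Without DDC 1 the counts of higher and lower genes in each list from here to the hepatocyte markers were the same. The genes named as the lower members of a list were chosen after their values were seen. Of 8 other azurophil and promyelocyte genes, 1 was higher and 1 lower (median log2 fold change -0.09). Cd63, a tetraspanin of granule and lysosome membranes, rose 9.28-fold, and Cebpe, the factor that drives specific granule genes, was 3.13-fold lower (edgeR adjusted p = 0.000218). Prtn3, proteinase 3, was 3.40, 1.35, 7.12 and 3.16 CPM in controls and 0.942, 3.95, 4.59 and 3.94 CPM in DDC 1 to 4 (edgeR adjusted p = 0.820). Ctsg, cathepsin G, was 1.11, 0.568, 0.951 and 1.14 CPM in controls and 0, 0.592, 0.483 and 0.652 CPM in DDC 1 to 4 (edgeR adjusted p = 0.286). DDC 1 was the lowest of the 8 libraries for both.

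Of 12 other specific and gelatinase granule genes, 7 were higher and 2 lower, Wfdc21 and Arg1 (median log2 fold change 1.43). With library totals alone 8 were higher and 0 lower, and Arg1 is also the abundant urea cycle enzyme of hepatocytes. Lcn2, lipocalin-2, which hepatocytes also make in injury, was 77.6, 55.5, 84.4 and 86.0 CPM in controls and 268, 926, 938 and 924 CPM in DDC 1 to 4, a 10.1-fold rise (edgeR adjusted p = 0.000228; 12.1-fold without DDC 1). Mmp8, neutrophil collagenase, was 1.01, 1.96, 2.11 and 1.92 CPM in controls and 1.96, 7.09, 5.66 and 8.66 CPM in DDC 1 to 4, a 3.34-fold rise (edgeR adjusted p = 0.00661; 4.02-fold without DDC 1). The Mmp8 call was lost with limma voom (adjusted p = 0.0578). DDC 1 lay inside the control range for Mmp8 and well above it for Lcn2. Mmp9, gelatinase B, rose 6.45-fold, Chil3, a chitinase-like protein shared with macrophages, 6.56-fold and Adam8, a leukocyte metalloproteinase, 21.7-fold.

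Of 16 surface and mature neutrophil genes, 12 were higher and 2 lower, Hdc and G0s2 (median log2 fold change 2.05). Il1r2, a decoy receptor for interleukin-1, was 0.427, 0.157, 0.342 and 0.330 CPM in controls and 7.69, 4.37, 7.24 and 4.51 CPM in DDC 1 to 4, an 18.8-fold rise with DDC 1 the highest. Trem1, an amplifying receptor, rose 19.7-fold and Clec4d 17.9-fold. Ly6g, the usual neutrophil surface marker, was 0.466, 0.235, 0.247 and 0.165 CPM in controls and 0, 0.533, 0.454 and 0.728 CPM in DDC 1 to 4. Its groups overlapped, DDC 1 had no counts, and it did not pass (edgeR adjusted p = 0.588). All 6 NADPH oxidase subunit genes, which make the oxidative burst, were higher (median 2.67), with Cybb up 8.12-fold and Ncf4 6.42-fold. Of 10 adhesion genes 9 were higher and 0 lower (median 2.10), with the integrin chains Itgam up 12.2-fold and Itgb2 6.21-fold and the endothelial ligand Vcam1 4.62-fold.

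Among signals that draw or grow neutrophils, 10 of 12 genes in the table were tested, and 7 were higher and 2 lower, Ppbp and Cxcl12 (median log2 fold change 2.38). The Cxcr2 ligand Cxcl5 was 3.47, 5.00, 4.70 and 1.92 CPM in controls and 44.5, 32.1, 72.7 and 40.6 CPM in DDC 1 to 4, a 12.6-fold rise (edgeR adjusted p = 6.54e-05). Cxcl2, another ligand of Cxcr2, rose 18.2-fold, the cytokine Tnf 18.0-fold and the complement receptor C5ar1 14.2-fold. Cxcl1 was 64.4, 23.5, 65.3 and 27.3 CPM in controls and 44.6, 29.1, 41.8 and 33.1 CPM in DDC 1 to 4, inside the control range, and did not pass (edgeR adjusted p = 0.538). Csf3, the ligand of Csf3r, was not tested, at 0, 0, 0.152 and 0 CPM in controls and 0.206, 0.178, 0.628 and 0 CPM in DDC 1 to 4.

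Markers of other cell types are given beside these values. Of 14 monocyte and macrophage markers 13 were higher (median 3.09), and their summed level was 370 to 452 CPM in controls and 1369 to 1449 CPM in DDC, with DDC 1 at 1393 CPM. Cx3cr1 rose 20.5-fold, Itgax 19.1-fold and Ms4a7 11.9-fold. All 5 Kupffer cell markers were higher, summing to 214 to 300 CPM in controls and 820 to 1185 CPM in DDC. Several neutrophil genes here, among them Itgam, Cybb, Trem1 and Chil3, are also expressed by monocytes and macrophages, and the part of these cells in the neutrophil gene values was not tested. Erythroid markers were lower for 5 of 6, summing to 606 to 759 CPM in controls, 517 CPM in DDC 1 and 211 to 282 CPM in DDC 2 to 4. Hematopoietic progenitor markers were higher for 5 of 6, with Sox4 up 7.17-fold. The remaining gene, Flt3, did not pass (log2 fold change -0.31, edgeR adjusted p = 0.485). B and plasma cell markers were lower for 4 of 6 and higher for 0. T and NK cell markers were higher for 2 of 6, and of 4 platelet markers 1, Pf4, was higher and 1, Ppbp, lower, shares near those of all tested genes. With library totals alone the erythroid list had 2 lower, the T and NK list 5 higher, the B and plasma list 1 higher and 3 lower and the platelet list 2 higher and 1 lower. Of the 2 eosinophil markers tested, Siglecf was higher and Prg2 did not pass (edgeR adjusted p = 0.316). The mast cell and basophil markers Mcpt8, Cpa3 and Ms4a2 were not tested, and Epx was at 0 in 7 of the 8 libraries. All 8 hepatocyte markers were lower.

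The 8 genes outside the 10 whose pattern over the 8 libraries was most like the mean of the 10 were Dbil5, Dnajb3, Prss52, Tcfl5, Prss55, Scp2d1, Tesk1 and Tuba3b. Likeness was the root mean square difference of standardized log2 CPM, and it ran from 0.135 to 0.191 standard deviations. The mean of the 10 joins unlike profiles. In DDC 1 the standardized values were 1.15 for Csf3r and 1.09 for Cxcr2, and -2.41 to -2.02 for the granule genes. Several of the 8 genes most like the mean are known for expression in the testis. A list of 12 testis germ cell genes was added after these values were seen, so its calls are not independent support. It summed to 51.3 to 91.7 CPM in controls, 51.0 CPM in DDC 1 and 295 to 350 CPM in DDC 2 to 4. In the edgeR fit of all libraries 12 of the 12 were higher, against 30.2% of all tested genes. Prm2, a protamine of sperm chromatin, was 12.6, 8.47, 13.8 and 11.1 CPM in controls and 8.72, 49.3, 45.2 and 52.8 CPM in DDC 1 to 4. A list of 12 cardiac muscle genes, added in the same way, summed to 954 to 1992 CPM in controls, 1345 CPM in DDC 1 and 221 to 258 CPM in DDC 2 to 4. Of these, 0 were called with all libraries and 11 were lower without DDC 1, where 27.3% of all genes were lower. The part of these transcripts in the values of S100a8, S100a9 and Retnlg, which were highest in DDC 2 to 4, was not tested. Their part in the values of Csf3r and Cxcr2 was not tested either, and these stood at 50.5 and 12.7 CPM in DDC 1, where the testis sum was close to that of the lowest control.

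**Figure D4:**
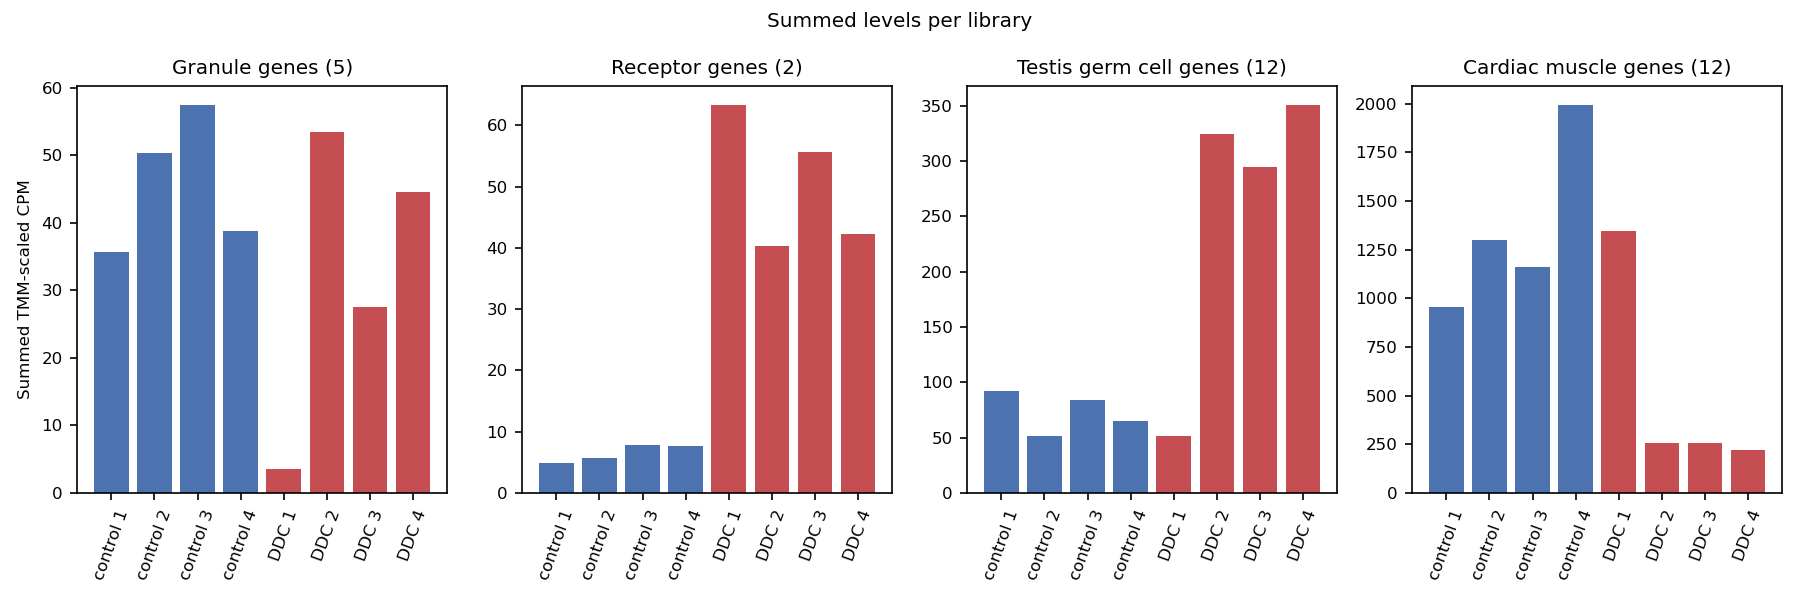
Summed TMM-scaled CPM per library for the 5 granule genes, the 2 receptor genes, 12 testis germ cell genes and 12 cardiac muscle genes, on axes from 0 that differ by panel; blue bars are controls and red bars DDC. The granule sum is lowest in DDC 1 at 3.54 CPM and the receptor sum is highest there at 63.2 CPM.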

How the data were processed

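Per the labels' protocols, polyadenylated liver RNA was sequenced from dUTP libraries as paired reads. The deposited counts are the authors' whole-number reads per gene, and the deposited FPKM values are those scaled by length and depth. The tools named per the submitters' processing notes were cutadapt, FastQC, HISAT2, StringTie and DESeq2 on GRCm38 and mm10. Versions and the strand setting of counting are not given in the sources used here. Symbols and coordinates came from the deposited table, and 0 columns were left out.

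In edgeR 4.0.16 under R 4.3.3, counts of all 8 libraries were filtered with filterByExpr, scaled by TMM and fitted by robust quasi-likelihood without covariates, two-sided, with Benjamini-Hochberg adjustment over all tested genes at 0.05. Each SE is the log2 fold change divided by the square root of F. Ratios of FPKM values were compared by exact permutation. The fit was tested on simulated data. Alternatives were DESeq2 1.42.0, limma 3.58.1 (voom, and log2 FPKM with pseudocounts of 0.1 and 1), other scalings and filters, a replicate block and leaving out each library. No 2 libraries of a group agreed within sampling noise. Intervals and floors cover counting error only. Promoters are from RefSeq (GRCm38.p6) and all 10 symbols matched.

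The 10 genes and the lists were chosen with earlier results of these data known. Named genes were the 10 genes, 10 set neutrophil genes, up to 3 called genes with the largest log2 fold change at 1 CPM or more from each list, and the 8 genes most like the 10.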

Additional observations from a re-analysis of the deposited data

Results flagged for a closer look

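Retnlg in DDC 1, at 2.57 CPM, stood apart from the other 3 DDC libraries at 7.13 to 7.88 CPM. Its gap to the nearest of them was 0.857 of the range of the group, above Dixon's critical value for 4 samples. The rule was applied to 22 groups on CPM without logs, and chance marks about 1 in 20. A DDC library was known to stand apart when the genes were chosen, so the flag is not independent support. The rise of Retnlg was 2.91-fold with DDC 1 and 3.43-fold without it.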

How the results depend on the processing

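S100a8, S100a9, Retnlg, Csf3r and Cxcr2 were the genes called higher under all 18 alternatives, with log2 fold changes of 1.53 to 2.33, 1.28 to 2.05, 1.41 to 2.17, 2.70 to 3.51 and 1.98 to 3.87. Leaving out 1 library gave 5 higher throughout and 0 to 1 lower. Mpo was the 1 gene called lower without control 2, DDC 1 or DDC 2 and with DESeq2 and limma voom. Over all genes the higher and lower counts were 5893 and 5205. They were 11505 and 1750 with library totals alone, 11973 and 1831 with log2(FPKM + 0.1), 11944 and 1807 with log2(FPKM + 1), and 5039 to 6228 and 4593 to 5532 with 1 library left out. The labels do not say that replicate numbers pair the samples, and correlations of same-numbered deviations were -0.185, -0.156, 0.0271 and -0.0344. Whether same-numbered animals shared a cage or day cannot be judged from these. With the replicate block 5 of the 10 genes were higher and 0 lower, with 4810 higher and 4654 lower over all genes. Ratios of S100a8 to S100a9 kept their direction with 1 library left out (log2 0.19 to 0.50, exact permutation p from 0.171 to 0.457).

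Genes that missed the threshold changed sign in places, and the cause was not tested. The log2 fold change of Ngp became 0.46 with library totals alone, 0.016 with log2(FPKM + 1), 0.0086 without control 3 and 0.19 without DDC 1, and with 1 library left out it was -0.49 to 0.19. For Camp it became -0.48 with limma voom, -0.41 with the replicate block, and -0.0046, -0.044, -0.45 and -0.11 without control 1, control 4, DDC 2 and DDC 4, and with 1 library left out it was -0.45 to 0.38. Ly6g was at -0.37 with limma voom. Prtn3 was at 0.47, 0.44 and 0.30 with library totals alone, log2(FPKM + 0.1) and log2(FPKM + 1), and at 0.34 and 0.13 without control 3 and DDC 1. Cxcl1 was at 0.34, 0.47 and 0.44 with the same 3 scalings. Of 11 losses of a call among other genes, 1 was Mmp8 with limma voom, 1 Klf1 with library totals alone and 9 the testis genes Prm2 and Tnp2. With 4 animals a group and 1 library apart, standard errors of the granule genes reached 0.98 on the log2 scale, so changes larger than that could also go uncalled. Mpo, at -1.62 with SE 0.63, missed the threshold in the fit of all libraries (edgeR adjusted p = 0.0534).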

Other observations

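The genes most like the receptor pair over the 8 libraries, a pattern chosen after the values were seen, were Cyp4f18, Tmem45a and Ccnd2. Inpp5d, Fbn1 and Cd33 came next. Cyp4f18, a cytochrome P450 that inactivates leukotriene B4, was 0.873, 0.784, 1.31 and 1.14 CPM in controls and 16.5, 11.0, 12.4 and 10.8 CPM in DDC 1 to 4, with DDC 1 the highest as for Csf3r and Cxcr2. Cd33, a sialic acid receptor of myeloid cells, was 1.55 to 3.06 CPM in controls and 24.7, 15.4, 19.0 and 15.1 CPM in DDC 1 to 4. The gene most like the 5 granule genes was Ctsg, cathepsin G, with no counts in DDC 1. Those most like S100a8, S100a9 and Retnlg together were Oscp1, Cdca2 and Fam71e1. Oscp1 was 1.47, 0.960, 1.27 and 1.38 CPM in controls and 1.95, 6.82, 7.74 and 7.17 CPM in DDC 1 to 4. Ighg1, the constant region of an immunoglobulin heavy chain, was 35.0 to 81.9 CPM in controls, 3.05 CPM in DDC 1 and 22.9 to 28.0 CPM in DDC 2 to 4. Tet3 was 36.3 to 43.1 CPM in controls, 7.79 CPM in DDC 1 and 32.0 to 36.0 CPM in DDC 2 to 4.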
